A study of Mus musculus with 5 samples.

Results

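Of 4092 merged CREB regions of the mouse fetal testis, 360 held a peak at E18.5 (embryonic day) and none at E13.5 or E16.5, and also lay at an end of a protein-coding gene. These regions were found by joining the CREB peaks of the 3 stages wherever they shared at least 1 bp on the assembled chromosomes, keeping those with an E18.5 peak alone, and requiring an overlap with the 1000 bp on either side of a coding gene's outer start or end in RefSeq (build mm10). They made up 8.8% of all merged regions and 68.8% of the 523 regions with an E18.5 peak alone. In 318 of the 360 no midpoint of an E13.5 or E16.5 CREB peak lay within 1000 bp, and in 42 there was one that did not touch. The members were chosen by the presence or absence of peaks in the 3 CREB lists, so their being alone at E18.5 is given as a description and was not tested.

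The libraries were made by CUT&RUN, in which an antibody tethers a nuclease that cuts out the DNA around its target, from dissociated cells of male gonads that had passed a 70 µm filter, with 100000 cells in each assay. Fetal testis of 3 stages (E13.5, E16.5, E18.5) gave an anti-CREB library each, and the last also an anti-H3K4 library, whose methylation state is unnamed; no genotype, strain or pooling of embryos is given, and an IgG library was not analysed here. Each group has 1 library, so nothing below could be checked on replicates, and a peak seen at E18.5 alone could reflect the stage, the library or its depth, which cannot be told apart. The deposited lists hold 862, 3528 and 2957 CREB peaks in order of stage and 21211 H3K4 peaks, nearly all 150, 630, 160 and 210 bp wide, with no height or read count; the caller usually gives varying widths, and the step that fixed them is not stated.

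CREB is a basic leucine zipper transcription factor that is phosphorylated by protein kinase A when cAMP rises and then recruits the coactivators CBP and p300. It binds the palindromic cAMP response element (CRE), TGACGTCA, and, more weakly, the half-site TGACG, and in many tissues it sits on promoters before any stimulus. In the testis, cAMP carries the luteinizing hormone signal in Leydig cells and the follicle-stimulating hormone signal in Sertoli cells. Methylation of histone H3 at lysine 4 marks active or poised promoters and enhancers.

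The sequences of the regions are shown first because the CRE, the site CREB is known for, was almost missing from the peaks that could be read. A whole peak could be read only where it lies inside a RefSeq promoter window. The peaks of the other members were not read, so whether they hold the CRE is not known. Among 180 members whose whole 160 bp peak lies inside a RefSeq promoter window (GRCm38.p6, which has the coordinates of mm10; 250 bp before to 50 bp after a gene's start), 1 held the full CRE. It lies at Ndufa11, which encodes a subunit of mitochondrial complex I, at chr17:56717549-56717708 (plus strand), and its region also reaches the start of Vmac. Every sequence below is the E18.5 peak itself, read 5′ to 3′ on the strand of the gene; capitals mark the full CRE or, where there is none, each CRE half-site on either strand.
Ndufa11: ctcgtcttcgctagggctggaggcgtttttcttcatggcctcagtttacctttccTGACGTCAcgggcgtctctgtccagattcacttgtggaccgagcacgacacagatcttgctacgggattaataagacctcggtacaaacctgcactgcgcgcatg

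Among the members whose peak could be read, the next 4 are the first in the E18.5 list with a half-site and no full CRE. They lie at Slc25a33, a mitochondrial carrier of pyrimidine nucleotides, chr4:149774262-149774421 (minus strand); at Aftph, a protein of clathrin-mediated trafficking, chr11:20741604-20741763 (minus strand); at Rpa3, the small subunit of the single-strand DNA binding complex RPA, chr6:8259169-8259328 (minus strand); and at Rcor1, a corepressor that partners the histone demethylase LSD1, chr12:111039137-111039296 (plus strand). The peak at Slc25a33 held 2 half-sites and the other 3 held 1 each.
Slc25a33: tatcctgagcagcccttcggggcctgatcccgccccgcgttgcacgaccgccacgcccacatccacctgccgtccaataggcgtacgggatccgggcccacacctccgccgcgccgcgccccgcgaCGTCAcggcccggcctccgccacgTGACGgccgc
Aftph: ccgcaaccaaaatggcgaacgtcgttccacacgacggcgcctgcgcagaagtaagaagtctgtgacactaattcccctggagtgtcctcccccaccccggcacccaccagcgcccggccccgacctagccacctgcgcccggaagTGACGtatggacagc
Rpa3: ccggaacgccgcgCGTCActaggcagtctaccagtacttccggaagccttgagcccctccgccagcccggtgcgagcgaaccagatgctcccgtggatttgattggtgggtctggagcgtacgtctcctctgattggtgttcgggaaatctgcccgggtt
Rcor1: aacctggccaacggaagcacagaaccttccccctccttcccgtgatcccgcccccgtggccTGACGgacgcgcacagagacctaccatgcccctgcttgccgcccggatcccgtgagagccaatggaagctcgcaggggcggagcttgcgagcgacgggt

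More common among the member peaks that could be read was one with neither. The first 4 such members lie at Tmem60, chr5:20882234-20882393 (plus strand); at Ankrd50, chr3:38484937-38485096 (minus strand); at Prpf4b, a kinase of the pre-mRNA splicing machinery, chr13:34875320-34875479 (plus strand); and at Tmem237, a protein of the ciliary transition zone, chr1:59119892-59120051 (minus strand).
Tmem60: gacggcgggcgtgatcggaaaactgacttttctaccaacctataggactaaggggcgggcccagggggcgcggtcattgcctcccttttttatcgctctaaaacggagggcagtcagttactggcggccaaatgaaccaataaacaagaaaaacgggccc
Ankrd50: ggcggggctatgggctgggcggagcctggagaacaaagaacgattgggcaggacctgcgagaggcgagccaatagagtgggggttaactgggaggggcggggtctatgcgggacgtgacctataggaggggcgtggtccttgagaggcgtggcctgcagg
Prpf4b: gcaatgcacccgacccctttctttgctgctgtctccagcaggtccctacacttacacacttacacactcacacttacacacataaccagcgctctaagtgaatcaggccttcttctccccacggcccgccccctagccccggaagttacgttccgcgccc
Tmem237: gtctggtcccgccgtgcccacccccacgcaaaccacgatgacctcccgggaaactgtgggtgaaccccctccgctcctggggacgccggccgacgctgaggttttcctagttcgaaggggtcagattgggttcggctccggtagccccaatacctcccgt

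For contrast, 2 peaks with the full CRE are given from regions seen at both E16.5 and E18.5. They are the first such in the E18.5 list among peaks inside a promoter window. They lie at Gas5, a non-coding host gene of small nucleolar RNAs whose start is next to Zbtb37, chr1:161034980-161035139 (plus strand), and at Aplf, a DNA repair factor, chr6:87672251-87672410 (minus strand).
Gas5: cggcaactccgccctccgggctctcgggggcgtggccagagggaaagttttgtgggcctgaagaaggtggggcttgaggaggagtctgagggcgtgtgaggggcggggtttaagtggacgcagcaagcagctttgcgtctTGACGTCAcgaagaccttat
Aplf: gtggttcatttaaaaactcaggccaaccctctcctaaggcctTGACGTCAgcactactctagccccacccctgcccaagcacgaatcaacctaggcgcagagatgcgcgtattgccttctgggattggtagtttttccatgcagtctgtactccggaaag

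Across the promoters, the full CRE was rarer at the members than at any other class of gene-end CREB region compared, and was not more common than at coding promoters in general. The letters were sought on both strands; a full CRE holds 2 overlapping half-site matches and is counted in both. Of the 326 promoter windows at member starts, 2 held it, or 0.613% (95% Wilson interval 0.168 to 2.21, here and below covering counting error only). The background is 2.23% of 21263 coding promoters (2.04 to 2.44). The share was 9.31% (7.83 to 11) of 1268 windows at gene-end regions seen at E16.5 and E18.5, 15.2% (12.6 to 18.1) of 673 at regions seen at all 3 stages, and 11.5% (9.2 to 14.3) of 609 at regions seen at E16.5 alone. The intervals of these 3 classes, taken whole, do not overlap that of the members; late in the E16.5 list the regions seen at E16.5 alone had a share whose interval does, as given with the list positions. No test of the differences was made, since the windows share libraries and a region at a pair of starts gives a window for each.

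The 2 windows with a CRE belong to Ndufa11 and to Ppm1a, which encodes a serine/threonine protein phosphatase. At Ndufa11 the CRE centre lay 20 bp from the peak midpoint. At Ppm1a it lay 593 bp from the midpoint, and the member peak did not reach the promoter window. Both members have an E16.5 midpoint close by, at 448 and 457 bp. None of the 285 windows at members with no other CREB midpoint within 1000 bp held the full CRE (Wilson interval 0 to 1.33%; a count of 0, taken as fewer than 3 windows, allows up to 1.05%).

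The half-site was not as rare. It occurred in 35.3% (30.3 to 40.6) of the members' windows, against a background of 23.6% (23 to 24.2) of coding promoters. The share was 56.1% (53.3 to 58.8) at regions seen at E16.5 and E18.5, 73.1% (69.6 to 76.3) at those seen at all 3 stages and 52.7% (48.7 to 56.6) at those seen at E16.5 alone. The members thus lay above coding promoters in general and below the other 3 classes of CREB region, with no interval touching theirs. The half-site holds the letters CG, and base composition was not compared with that of coding promoters in general. Counting only windows that have a half-site and no full CRE left the order unchanged, at 34.7% for the members, 46.8%, 57.9% and 41.2% for the other classes in the same order, and 21.4% for all coding promoters; here the members' interval (29.7 to 39.98) overlapped that of regions seen at E16.5 alone (37.4 to 45.2).

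**Figure D1:**
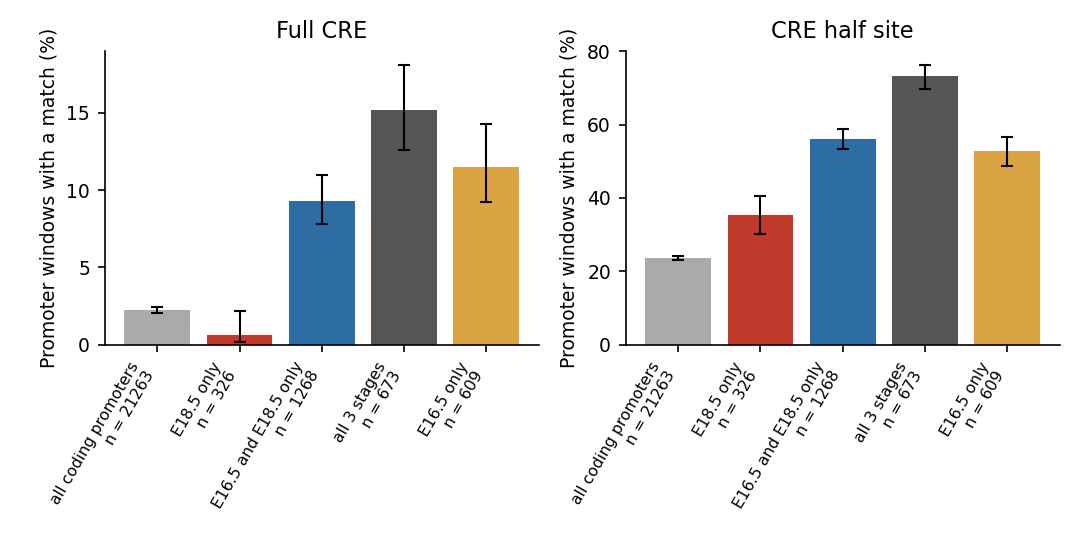
Percent of 300 bp promoter windows with the full CRE (left) and with the CRE half-site (right), for all coding promoters and for gene-end CREB regions by the stages at which they hold a peak; bars start at 0, black lines are 95% Wilson intervals and n is the number of windows. The E18.5-only bar is the shortest of the CREB classes in both panels, at 0.613% and 35.3%.

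Inside the peaks the classes with an E18.5 peak stood in the same order. Of the 180 member peaks that lie wholly in a promoter window, 0.556% (0.0981 to 3.08) held the full CRE and 29.4% (23.3 to 36.5) a half-site. A 160 bp stretch of every coding promoter, placed at the members' median offset of -92 bp from the start, held them in 1.64% and 15.3%. E18.5 peaks of regions also seen at E16.5 held the full CRE in 7.58% (5.73 to 9.96; n = 607) and the half-site in 44.2% (40.3 to 48.1), and those of regions seen at all 3 stages in 12.9% (9.68 to 17.1; n = 317) and 65.3% (59.9 to 70.3). Base composition differed little in its medians: GC content was 62.5% in member peaks against 61.2% and 60.6% in the other classes, and the median number of CpG was 11, 12 and 12. Counting only peaks with a half-site and no full CRE gave 28.9% (22.8 to 35.9) for the members. It gave 36.6% (32.8 to 40.5) for regions also seen at E16.5 and 52.4% (46.9 to 57.8) at all 3 stages. The members' interval overlapped the first of these, which it did not in the windows. Where a half-site was present, the one nearest to the midpoint lay a median of 30.5 bp away in member peaks, against 35.5 and 31.5 bp. Of member peaks, 5% held 2 or more half-sites against 14% and 28.7%. Each full CRE alone counts as 2 half-sites here. The peaks with 2 or more numbered 9, 85 and 91, and those among them with a full CRE 1, 46 and 41.

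The share with the CRE varied with how far the other stages' peaks lay. The E16.5 peaks are 630 bp wide, so an E18.5 peak counts as alone only where its midpoint is at least 395 bp from an E16.5 midpoint at the usual widths. Taking each E18.5 peak at a coding gene's start by itself, the full CRE was found in 12.4% (10.7 to 14.4) of 1255 windows whose peak lay within 50 bp of another stage's midpoint. It was found in 10.6% of 387 at 51 to 100 bp, in 8.29% of 181 at 101 to 200 bp, in 8.4% of 131 at 201 to 394 bp and in 5% of 40 (2 windows) at 395 to 1000 bp. It was found in 0 of 29 windows at 1001 to 10000 bp and in 0 of 256 beyond 10000 bp, where the interval reaches 1.48%. With all CREB peaks set to 150 bp, which admits E18.5 peaks closer to E16.5 ones, the class grew to 544 regions and its CRE share to 3.29% (2.06 to 5.2; 17 of 517 windows), while regions seen at E16.5 and E18.5 stood at 9.49% (7.89 to 11.4) under the same widths.

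**Figure D2:**
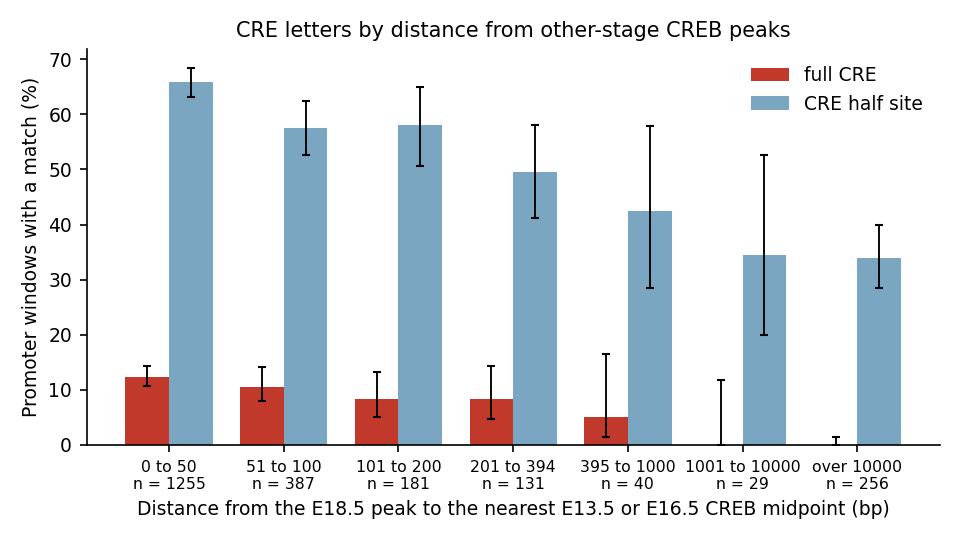
Percent of promoter windows with the full CRE (red) and the half-site (blue) at E18.5 CREB peaks on coding gene starts, by the distance in bp from the peak midpoint to the nearest E13.5 or E16.5 CREB midpoint; black lines are 95% Wilson intervals and n is the number of windows. The full CRE goes from 12.4% in the nearest bin to 0 in the 2 farthest, and the half-site from 65.8% to 34%.

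Most other promoter letters differed less between the classes. The GC box GGGCGG, bound by Sp1-type factors, occurred in 73.6% (68.6 to 78.1) of the members' windows, against 71.5%, 77.1% and 70.8% for regions seen at E16.5 and E18.5, at all 3 stages and at E16.5 alone, and 46.2% of coding promoters. The ETS letters CCGGAAGT occurred in 12.3% (9.14 to 16.3) of the members' windows against 9.94%, 10.8% and 11.3%, with 5.15% of coding promoters. Within peaks the ETS share was 9.44% (5.98 to 14.6) for the members, 3.62% (2.41 to 5.43) for regions seen at E16.5 and E18.5 and 5.05% (3.13 to 8.04) for those seen at all 3 stages. Along the list the ETS share of member peaks was 19.4% (6 of 31) in the second part, 8.47% in the third and 6.74% in the last, against 2.31%, 4.3% and 5.97% for regions seen at E16.5 and E18.5. The intervals of the members and of regions seen at E16.5 and E18.5 did not overlap over the whole list; no test was made. The SF1 letters CAAGGTCA, the site of the steroidogenic factor Nr5a1, were found in 3 member windows, or 0.92%, against 1.34% of coding promoters. In the other classes, in the order given for the GC box, the share was 0.71%, 0.594% and 0.657%. AP-1 letters TGANTCA, where N is any base, stood at 5.21%, the E-box CACGTG at 9.82% and TATAAA at 6.44%, with 6.99%, 7.84% and 12.6% of coding promoters. In the other classes, in the same order, AP-1 stood at 3.94%, 4.16% and 1.97%. The E-box stood there at 10.9%, 10.1% and 9.69%, and TATAAA at 5.6%, 5.2% and 6.08%. CCAAT occurred in 50.3% of the members' windows (38.2% of coding promoters), the YY1 letters AAGATGGCG in 3.68% (1.83%), the NRF1 letters GCGCATGCG in 3.68% (2.35%) and the BANP letters TCTCGCGAG in 1.84% (0.964%). In the other classes, in the same order, CCAAT occurred in 51.3%, 56% and 41.5%, and YY1 in 4.42%, 4.31% and 3.61%. NRF1 occurred there in 5.05%, 2.38% and 4.6%, and BANP in 1.81%, 2.08% and 1.81%.

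The members stood late in the deposited E18.5 list. Their median place was 76.2% of the way down (quartiles 61.6 and 89.3), against 54.5% for gene-end regions also seen at E16.5 and 15.2% for those seen at all 3 stages. With the list split into 4 equal parts, 6 members were in the first, 43 in the second, 124 in the third and 187 in the last. The sources used here do not say what the order means. The list falls into 267 successive runs inside which peaks follow chromosome name and position, the longest of 58 peaks, so that places within a run are in map order; the members fall in 73 of these runs. List position moves together with class, so the CRE share was also taken within the 4 parts of the list, a split added after seeing the data. In the last part it was 0.588% (0.104 to 3.26; 1 of 170 windows) for the members and 8.72% (6.02 to 12.5; 26 of 298) for regions seen at E16.5 and E18.5. In the third part it was 0.926% (1 of 108) against 12.6% (49 of 390), in the second 0 of 42 against 7.13% (31 of 435), and in the first 0 of 6 against 8.28% (12 of 145). Regions seen at E16.5 alone did change along their own list, from 21.1% (8.51 to 43.3; 4 of 19) in its first part to 1.86% (0.796 to 4.28; 5 of 269) in its last, an interval that overlaps the members' own. The half-site share there, 42% (36.3 to 48), also overlapped that of the members in the last part of the E18.5 list, 32.4% (25.8 to 39.7).

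**Figure D3:**
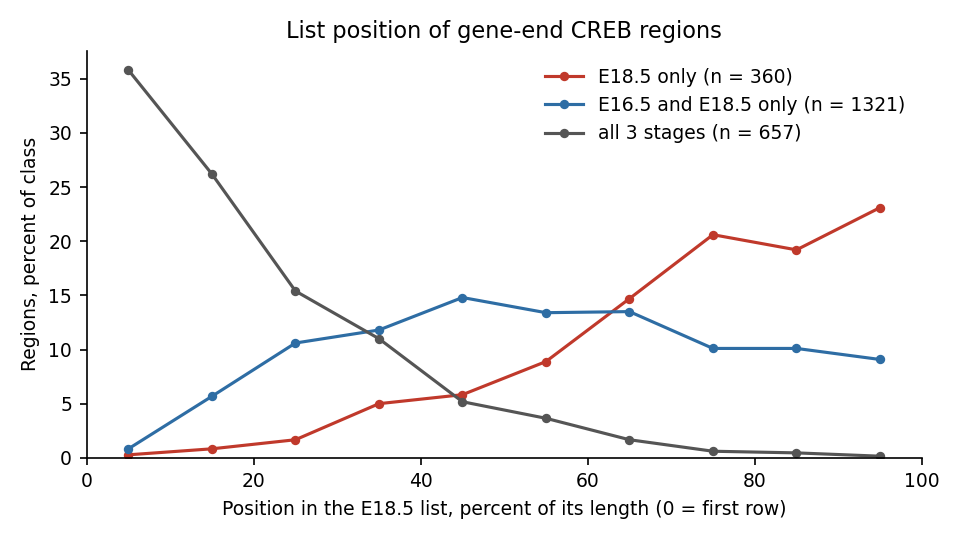
Percent of each class of gene-end CREB region in each 10% step of the E18.5 list, from the first row (0) to the last (100); the lines are the 360 E18.5-only regions, the 1321 also seen at E16.5 and the 657 seen at all 3 stages. The E18.5-only line climbs to 23.1% in the last step, where the line for all 3 stages is at 0.152%.

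A single member stood near the top. Egr1, which encodes an immediate early zinc finger transcription factor that cAMP and growth factors induce, had its peak at chromosome 18, 34860887 to 34861046, in position 14 of 2957. The midpoint of the nearest CREB peak of another stage, from E13.5, lay 71019 bp away, and 3 H3K4 midpoints lay within 1000 bp, the closest at 49 bp. No promoter window was used on this chromosome, so neither the strand nor the CRE letters are given for Egr1. The next member was Tnrc6c, a GW182 protein of microRNA silencing, at position 424, followed by Tmem60 and Phtf2 at 478, Pcnx3 and Map3k11 at 489, and Zfp36, whose protein speeds the decay of AU-rich mRNAs, at 681. Mboat7 and Tsen34 at 697, Slc25a33 at 848, the histone genes H2bc3 and H3c3 at 859, Ankrd50 at 865, Prpf4b at 875, Tmem237 and Mpp4 at 894 and Miga2, a mitochondrial fusion factor, at 896 completed the first 12. Of these 12, 5 had an E16.5 midpoint 397 to 474 bp away: Tnrc6c, Pcnx3, Mboat7, H2bc3 and Prpf4b. Among the members with no other CREB midpoint within 1000 bp, the first 12 end with Abhd8 and Mrpl34 at 905, Ncln at 906, Pcbp2 at 938, Kri1 and Cdkn2d, an inhibitor of CDK4 and CDK6, at 1009, and Snx11 at 1052.

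Distances to the nearest CREB peak of another stage fell into a near and a far group. The 42 near members had their neighbour 354 to 802 bp away (median 462 bp), and in all 42 an E16.5 midpoint lay within 1000 bp, with an E13.5 midpoint as well in 10. Another E18.5 peak also lay within 1000 bp in 22 of these 42, but in 2 of the other 318. The neighbour was upstream of the member in 22 and downstream in 10 of the 32 with a known strand. In the far group the median distance was 91986 bp (quartiles 31476 and 240378). Within 10000 bp of another stage's midpoint lay 81 of the 360, within 100000 bp 206 and within 1000000 bp 342. The 5 farthest were Chchd7 and Plag1 (3731942 bp), Umad1 and Rpa3 (2762615 bp), Pank3, a pantothenate kinase of coenzyme A synthesis (2606174 bp), Timm21 of the mitochondrial import machinery (2208927 bp) and Rhbdd1, a rhomboid protease (1975537 bp).

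**Figure D4:**
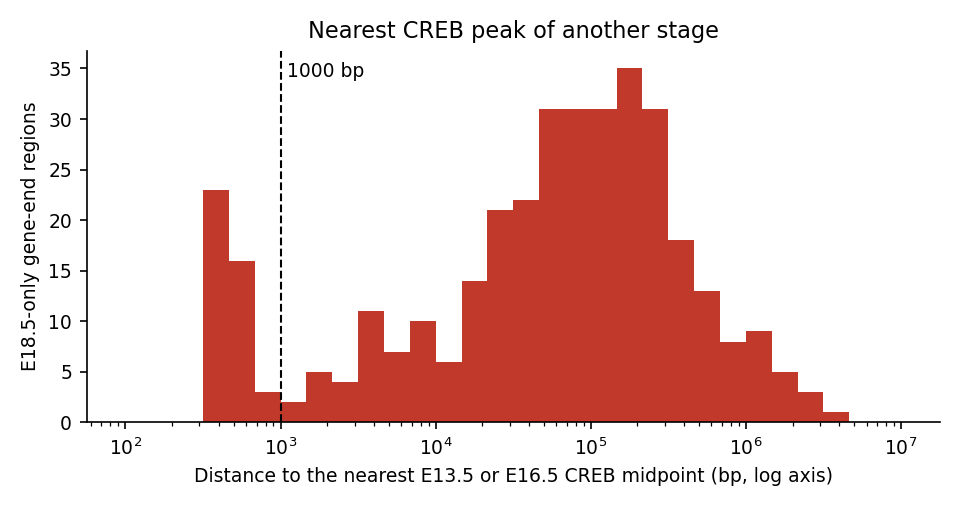
Number of E18.5-only gene-end regions by distance from their midpoint to the nearest E13.5 or E16.5 CREB midpoint, in bp on a log axis; the dashed line is at 1000 bp. The 42 regions left of the line lie between 354 and 802 bp, and the rest spread around a median of 91986 bp.

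At the edges of the rule, the members closest to a peak of another stage were Pcnx3 and Mvd, 2 bp from an E16.5 peak, and Sirt4 at 3 bp. Just outside, an E18.5 peak at H13 shared 1 bp with an E16.5 peak, and those at Spag9 and Fem1a 4 bp. For the distance to a gene end, the last inside were Zfp36 at 924 bp, Tmem30c at 960 bp and Zfp53 at 987 bp, and the first outside were Klf13 at 1028 bp, Mex3b at 1038 bp and LOC115488765 at 1065 bp.

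Nearly all members with a known strand sat at gene starts. The gene table gives no strand, which was read from the promoter windows where a gene had one. On that reading 296 members lay at a start, 8 at a far end only and 56 had no strand, so 97.4% (94.9 to 98.7) of those with a strand were at a start, against 99.2%, 99.8% and 97.3% in the classes seen at E16.5 and E18.5, at all 3 stages and at E16.5 alone. Relative to the start, the member midpoint lay at a median of -93 bp (quartiles -160 and -31.5), and 83.3% of the 287 with a promoter window at a start lay upstream. The medians were -87 and -100 bp for regions seen at E16.5 and E18.5 and at all 3 stages. Starts on both strands were within reach of 13.2% (9.8 to 17.7) of these 287, against 14.3% and 21.2% (18 to 24.8). The 8 far-end members were those at Zfp36, Zcchc3, H1f2, Pdyn, Zfp628, Sh3d21 with Eva1b, Zfp53 and Junb, and 4 of these 8 had an H3K4 midpoint within 1000 bp.

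H3K4 peaks, a measure the rule did not use, accompanied most members. At 324 of the 360 the nearest H3K4 midpoint was no more than 1000 bp away, or 90% (86.5 to 92.7), beside a background of 93.2% over gene-end CREB regions of any class. The shares were 93.5% (92 to 94.7) with E16.5, 95.4% (93.6 to 96.8) at all 3 stages and 92.7% (90.5 to 94.4) at E16.5 alone. The members' interval reaches those of the first and the last of these and ends just below that of the regions seen at all 3 stages. An H3K4 peak touched the member's 160 bp in 35% (30.3 to 40.1), with a background of 34.8%. Among members with another stage's midpoint within 1000 bp the H3K4 share was 83.3% (69.4 to 91.7; n = 42), and among the others 90.9% (87.2 to 93.6; n = 318). H3K4 at the earlier stages was not analysed here.

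H3K4 midpoints lay mostly on the gene side of the members. Of the 287 members with a promoter window at a start, 51.2% had H3K4 midpoints within 1000 bp only downstream, 18.1% only upstream, 22.6% on both sides and 8.01% on neither. H3K4 on both sides was found at 27% of regions seen at E16.5 and E18.5 and at 34.5% of those seen at all 3 stages. The fullest 100 bp bin for the members ran from 0 to 100 bp into the gene, with 37 of 361 midpoints. The 36 members with no H3K4 midpoint within 1000 bp included Zfp36 (nearest at 3383 bp), Ankrd50 (127048 bp), Pcbp2 (1136 bp) and Fnbp4 (1016 bp).

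**Figure D5:**
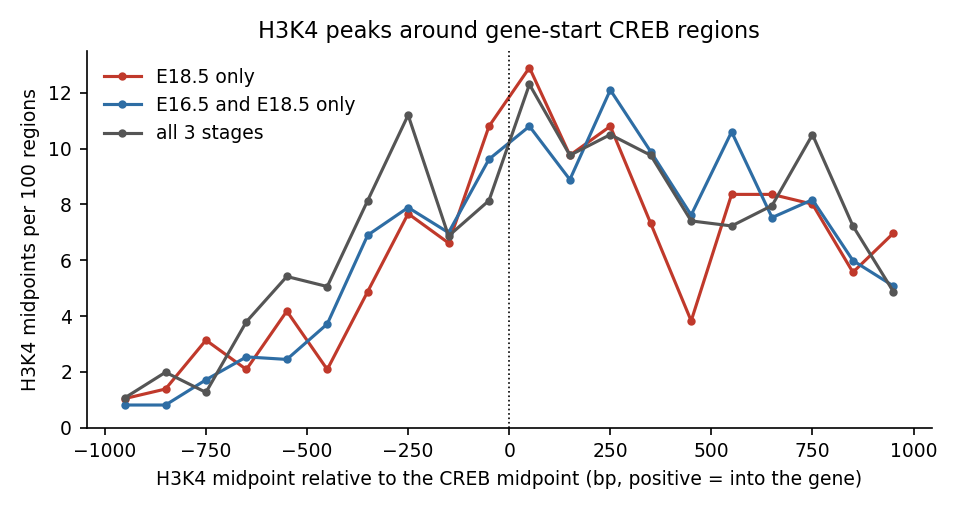
H3K4 midpoints per 100 gene-start CREB regions, in 100 bp bins by distance from the CREB midpoint, with positive values toward the gene body; lines are the 3 classes of region with an E18.5 peak. The E18.5-only line is highest at 12.9 per 100 regions between 0 and 100 bp, and midpoints are more frequent on the positive side in all 3 lines.

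The 360 regions touched the ends of 435 coding genes, a background of 1.99% of 21887, and of 15.4% of the 2817 genes with any E18.5 CREB peak at an end. At 368 of the 435, or 84.6% (80.9 to 87.7), neither end had an E13.5 or E16.5 peak, and gene bodies were not searched. The other 67 had such a peak at an end. The rule keeps only regions that no such peak touches, so this share is a description. H3K4 peaks were at an end of 412 member genes, or 94.7% (92.2 to 96.5), close to the 95.8% (95 to 96.5) of all genes with an E18.5 peak and above the 52.7% of coding genes at large. A single gene was in reach of 282 members, 2 genes of 76 and 3 or more of 2, and 5 genes had 2 members: H2bc3, H3c3, Junb, Klhl36 and Prpf4b.

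Egr1 and Junb were the members among the genes of the cAMP response. Of 40 cAMP-induced CREB targets and immediate early genes, 20 had an E18.5 CREB peak at an end and 2 had a member. These 2 were 5% of the 40, beside the 1.99% of all coding genes, but the interval starts lower, at 1.38%. Among the 20 genes with an E18.5 peak they were 10%, below the 15.4% of all coding genes with such a peak. With a gene-end window of 2500 bp, 6 of the 40 had a member. Junb, a subunit of the AP-1 factor, had a member 29 bp from its start at position 1884, with the nearest other stage 12547 bp away, and a second at its far end at position 2567. Of 40 genes of the CREB family, its coactivators and protein kinase A, 10 had an E18.5 peak and 2 a member: Atf6b, a membrane-held factor of the endoplasmic reticulum stress response, at position 1176, and Crebl2, a small CREB-like factor, at position 1659. They are 20% of the 10, beside the background of 15.4%, and 1 of the 2 remained when genes with a peak of another stage at an end were left out. Bhlhe40, a repressor in the circadian clock, was the 1 member gene among 21 clock genes, and an E16.5 midpoint lay 481 bp from it.

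Genes of the unfolded protein response and of cholesterol synthesis and uptake had the highest shares of all list genes with a member among the 36 lists, on few genes. Of 28 genes of cholesterol synthesis and uptake, 17 had an E18.5 peak and 4 had a member (14.3%; 5.7 to 31.5): Mvd at position 1158, Npc1 at 2047, Lss at 2844 and Sqle at 2863. Sqle and Lss encode the enzymes that make and cyclize squalene epoxide, Mvd the decarboxylase that forms isopentenyl diphosphate, and Npc1 the carrier that moves cholesterol out of lysosomes. The Mvd member lay 397 bp from an E16.5 midpoint, while the other 3 were 59519 to 240707 bp from any. Of 23 genes of the unfolded protein response, 15 had an E18.5 peak and 4 a member (17.4%; 6.98 to 37.1). These were Ddit3, which encodes the stress factor CHOP, at position 1163, with an E16.5 midpoint at 520 bp; Pdia4 at 1378; Calr, the chaperone calreticulin, at 1883; and Dnajc3 at 2107. Ddit3 and Calr also had a peak of another stage at an end, and without such genes 2 of the 23 were left. Over all 3563 distinct genes of the lists together, 85 had a member, or 2.39%, a share lowered by 1110 olfactory receptor genes with no member. Both intervals start above it, as do those of histones, chaperones, translation initiation, ubiquitin-conjugating enzymes and cytosolic ribosomal proteins. For the ubiquitin and ribosomal lists they start just above it, at 2.8% and 2.57%. No share without the olfactory genes was taken. Any E18.5 peak was at 17 of the 28 and 15 of the 23 genes, beside 12.9% of all coding genes. Among genes that had any E18.5 peak, the members' part was 23.5% for the cholesterol list and 26.7% for the unfolded protein list. Over all coding genes it was 15.4%. Ubiquitin-conjugating enzymes (33.3%), translation initiation (31.2%) and histones (29.2%) stood higher than both lists, and cytosolic ribosomal proteins stood at 13.2%. None of these differences was tested.

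Other housekeeping groups had members at similar or lower shares of all their genes. Replication-dependent histones had 7 of 68 (10.3%; 5.08 to 19.8), at 5 regions, since H2bc3 and H3c3 share 2, H2ac8 and H2bc8 share 1 and H2ac6 and H2bc4 share 1; the remaining gene was H1f2. Without members near another CREB midpoint 3 of the 68 were left. An E16.5 midpoint lay 431 to 574 bp away at those of H2bc3, H3c3, H2ac6 and H2bc4, and 6170 bp or more at the others. Near-identical copies of histone genes may share reads, so these places are less certain. Translation initiation had 5 of 56 (8.93%; 3.87 to 19.3), namely Eif1, Eif6, Eif2s2, Eif2a and Eif1a, of which 3 were left under the same condition. Chaperones had 7 of 87 (8.05%; 3.95 to 15.7), among them Hsph1, Dnaja3 and Bag1, ubiquitin-conjugating enzymes 3 of 37 (Ube2c, Ube2n and Ube2j1) and DNA repair 3 of 44 (among them Chek2 and Parp1). Cytosolic ribosomal proteins had 5 of 84 (5.95%; 2.57 to 13.2), among them Rpl18, Rpl36, Rpl31 and Rplp1, and oxidative phosphorylation 3 of 87, Ndufa11, Atp5o and Uqcr10. The cell cycle list had 1 of 40, Mcm3, a subunit of the replicative helicase. Zinc finger genes with Zfp symbols had 7 of 397 (1.76%) and solute carriers outside Slc25 2 of 290 (0.69%; 0.189 to 2.48). Of the ciliary genes, 4 of 68 (5.88%; 2.31 to 14.2) had one, Tmem237, Bbs2, Tctn2 and Tctn1, and each remaining list with a member had 1 to 3.

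No member lay at a gene on the lists used here for cell types of the fetal testis. These lists are so short that the 1.99% of all coding genes would give fewer than 1 gene in each. None of 22 Leydig and steroidogenic genes, 18 Sertoli genes, 20 fetal germ cell genes and 20 interstitial, endothelial and immune genes had one, with upper bounds of 14.9%, 17.6%, 16.1% and 16.1%. E18.5 CREB peaks of any class were at an end of Fdxr in the first list and Maf in the last, and of no gene in the other two. H3K4 peaks at E18.5 were at 11 of the 22 Leydig genes, including Star, Cyp11a1 and Lhcgr, at 10 of the 18 Sertoli genes, including Amh, Sox9 and Dhh, at 3 of the 20 germ cell genes (Dazl, Dnd1 and Kit) and at 7 of the 20 interstitial ones. The libraries come from whole gonads, and which cells carried a member peak was not measured. Proteasome subunits, deubiquitinases, Hox genes and olfactory receptors also had no member. An E18.5 peak of another class was at 10 of 39 proteasome and 17 of 70 deubiquitinase genes. Of all coding genes with an E18.5 peak, 15.4% had a member. The upper bounds over all 39 proteasome and all 70 deubiquitinase genes, 8.97% and 5.2%, lie above the 1.99% of all coding genes. They have another base than the 15.4% and cannot be set against it. No interval was taken for the 10 and 17 genes with an E18.5 peak.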

How the data were processed

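CUT&RUN peak lists of 4 mouse fetal testis libraries were used, 1 per antibody and stage, grouped by their labels. Each deposited file gives only chromosome, start and end, in other words positions with no score or count; read depth is unknown. Per the submitters' processing notes, reads were handled with Trim Galore 0.6.10, the aligner Bowtie2 2.5.2 and the caller MACS2, on mm10; caller settings and control: not given in the sources used here. Peaks on unplaced scaffolds were left out of regions (28, 2 and 10 CREB peaks in order of stage), while list positions count all peaks.

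The members and the gene lists were chosen with earlier results of these data known. Genes came from a RefSeq GRCm38.p6 table, in which 21887 coding genes lie on assembled chromosomes. Promoter windows came from a RefSeq table of the same build holding 79.9% of them and none on chromosome 18. One window was used per region and gene, the one nearest the peak. Of the 360 members, 287 had a window at a start. Named genes are the first 12 members by list position, the first 12 with no other CREB midpoint within 1000 bp, the 5 farthest, those at the edges, and up to 6 members per main list or 4 per other list; naming more from a list, and the contrast sequences, were chosen after values were seen. Some genes that the rule selects are not reported here. Shares carry 95% Wilson intervals. No p-value is given, since each group has 1 library. Alternatives changed the gene-end window, peak widths, the definition of alone, the list length, the gene set and the H3K4 distance; parts of the list and bands of distance were added after seeing the data. Code was tested on simulated data and run with pandas 2.3.3, numpy 2.4.6 and matplotlib 3.10.9 under Python 3.11.15.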

Additional observations from a re-analysis of the deposited data

How the results depend on the processing

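Of 62 recomputed values, 52 stayed within 1.5 times (counts) or inside the interval of the reported value (shares and the median). With all CREB peaks set to 150 bp the members rose from 360 to 544 and the full CRE share from 0.613% to 3.29%. With E18.5 peaks that have no other CREB midpoint within 200 bp it was 2.85%, and with none within 1000 bp 0%. In these definitions the regions admitted or removed are those near an E16.5 peak. Keeping the first 50% of the E18.5 list left 49 members, 37 of them with no other midpoint within 1000 bp, a median place of 39.2% by construction, and a full CRE share of 0%. Counting H3K4 midpoints within 500 bp gave 71.7% and within 2000 bp 97.5%, against 90% at 1000 bp. A gene-end window of 500 or 2500 bp gave 325 and 402 members. Of 144 counts for single gene lists, 118 stayed within 1.5 times, 20 were lower and 6 higher. Leaving out the first of the 4 parts of the list, added after seeing the data, gave full CRE and half-site shares of 0.625% and 35.3%. No paired analysis was possible because each group has 1 library. With 1 library per stage and unknown depth, the lists cannot tell an absent site from one that went uncalled.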
